A study of Mus musculus with 15 samples.

Results

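The genes described here are 10 regulators of the G1 phase of the cell cycle: the D cyclins Ccnd1, Ccnd2 and Ccnd3, their kinase partners Cdk4 and Cdk6, the CIP/KIP inhibitors Cdkn1a, Cdkn1b and Cdkn1c, the retinoblastoma gene Rb1 and the growth arrest gene Gadd45a. They were chosen by gene symbol, as cyclins, kinases, inhibitors and arrest genes of G1, and are 10 of the 47643 symbols in the table. Earlier results of these data were known when the choice was made. The samples were tibialis anterior, the shin muscle that lifts the foot, from female C57BL/6J mice with a labelled age of 7 weeks. Per the series' design text, muscle was taken 49 days after mice received a melanoma xenograft that causes cachexia, the wasting of muscle and fat, or a mock injection, while the protocol label speaks of another tumour model and another time. The 4 groups were mock-injected control (n = 4), lisinopril alone (n = 3), melanoma (n = 4) and melanoma plus lisinopril (n = 4). Lisinopril inhibits angiotensin-converting enzyme, and its dose is not in the labels. Of the 15 libraries, 7 were thus from tumour-free and 8 from tumour-bearing mice.

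Cyclin D binds Cdk4 or Cdk6, and the complex phosphorylates the retinoblastoma protein, which otherwise holds back E2F factors and entry into S phase. The CIP/KIP proteins p21, p27 and p57 bind cyclin-kinase complexes and restrain Cdk2. In adult muscle the fibre nuclei have left the cell cycle, and cells able to divide are satellite cells, connective tissue, vessel and immune cells. The whole muscle was sequenced, so fewer cells of a type and less RNA per cell cannot be told apart.

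The D cyclins share an LxCxE motif near the amino end, through which they bind the retinoblastoma protein. The first 42 bases of the coding sequence of each are shown because they carry this shared contact, with its codons in capitals (transcripts of GENCODE M21, codons counted from 1 at the start codon). The motif spans codons 5 to 9 in Ccnd1 and codons 3 to 7 in Ccnd2 and Ccnd3.
Ccnd1: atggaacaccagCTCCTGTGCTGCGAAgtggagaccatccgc
Ccnd2: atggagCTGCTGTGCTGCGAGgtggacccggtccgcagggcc
Ccnd3: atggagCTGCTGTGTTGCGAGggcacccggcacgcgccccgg
The coding sequences hold 295, 289 and 292 codons, with 1 match to the motif in each. In the mm10 build Ccnd1 lies at chr7:144929931-144939925 on the minus strand, Ccnd2 at chr6:127125162-127152193 on the minus strand and Ccnd3 at chr17:47505051-47599691 on the plus strand.

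All values are TPM, transcript abundance per length scaled to a fixed sum in each library, which keeps no sequencing depth. Between 10530 and 12363 genes reached 1 TPM in a library. The libraries least like their group were control 2 (mean correlation 0.937) and melanoma 2 (0.938), while the other 13 reached 0.965 or more. Control 2 also held 352 TPM of the listed S phase and mitosis genes, against 32.6 to 69.7 TPM in the other tumour-free libraries, and 24008 TPM of red blood cell genes, against at most 4213 TPM there. Muscle fibre markers summed to 82792 to 138154 TPM in tumour-free and 85489 to 162339 TPM in tumour-bearing libraries, as the tissue label says. Of the melanocyte markers, Tyr was at 0 in all 15 libraries, and 6 of 7 were below 1 TPM in every library.

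In tumour-bearing muscle Ccnd1 fell and Cdkn1a, which encodes p21, rose. Averaged over both drug arms, these were the 2 of 9 tested genes past an adjusted p of 0.05 in limma, where 18% of the 11923 genes tested were called (14.5% higher, 3.45% lower). With median-ratio rescaling the calls over all genes split into 1107 higher and 1261 lower, with quantile normalization into 1176 and 1174, and with TPM recomputed without the mitochondrial genome into 1286 and 868, where TPM as deposited gave 1730 and 411. The median change of all genes was 0.17 on the log2 scale with TPM as deposited, and the median of the 9 genes was 0.03. Cdk6 reached 1 TPM in 2 libraries and was not tested. Mitochondrially encoded transcripts, which take part of the fixed TPM sum, made up 40.8 to 52.8% of TPM in tumour-free and 28.5 to 46.9% in tumour-bearing libraries. Without them the average tumour effect was -1.93 ± 0.24 for Ccnd1 (limma, adjusted p = 6.71e-04) and 1.33 ± 0.34 for Cdkn1a (adjusted p = 0.0197).

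**Figure D1:**
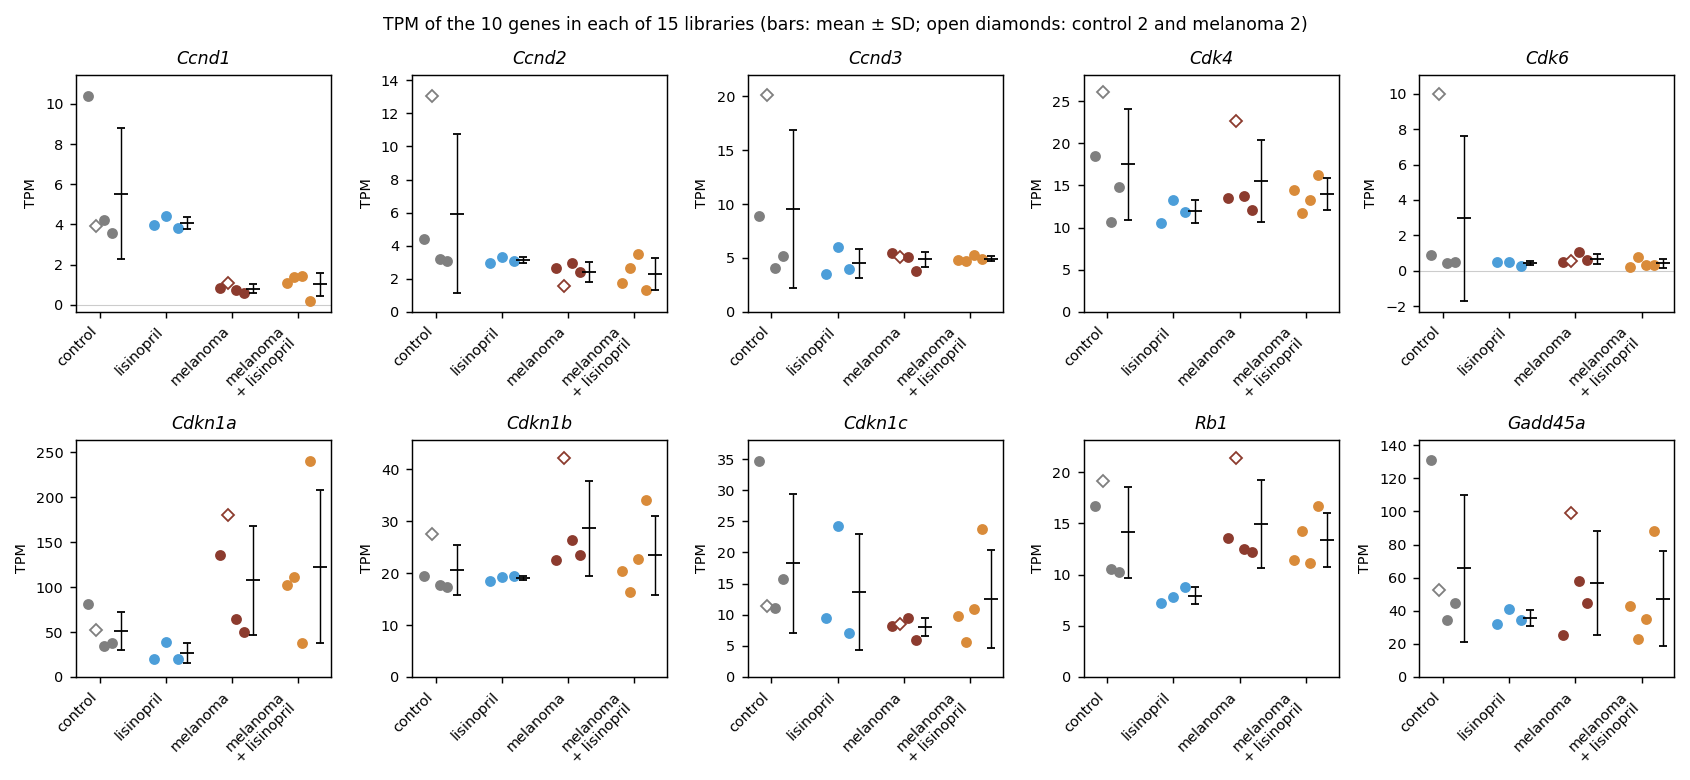
TPM of each gene (vertical axis, one panel a gene) in each of 15 libraries by group, with the mean and SD beside the points; open diamonds are control 2 and melanoma 2. The 8 tumour-bearing libraries have 0.163 to 1.41 TPM of Ccnd1, all below the 7 tumour-free libraries.

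Ccnd1, which encodes cyclin D1, had 10.4, 3.92, 4.24 and 3.57 TPM in control 1 to 4 and 3.98, 4.41 and 3.82 TPM in lisinopril 1 to 3. Melanoma 1 to 4 had 0.815, 1.07, 0.747 and 0.561 TPM, and melanoma plus lisinopril 1 to 4 had 1.10, 1.37, 1.41 and 0.163 TPM. Control 1 was the highest of all libraries, and none of the 8 tumour-bearing libraries reached the lowest tumour-free one, a separation that 2.33% of all genes tested showed (0.839% lower, 1.49% higher). It was the 1 of the 9 tested genes with no overlap between these 8 and 7 libraries. The group means were 5.53 ± 3.26 TPM in control (SD, n = 4), 4.07 ± 0.305 TPM with lisinopril (n = 3), 0.798 ± 0.210 TPM with melanoma (n = 4) and 1.01 ± 0.581 TPM with both (n = 4). The tumour-free mean was 5.43 times the tumour-bearing mean, and the lowest tumour-free library had 2.54 times the TPM of the highest tumour-bearing one.

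In limma, Ccnd1 fell by 1.76 ± 0.28 (SE) on the log2(TPM + 1) scale in melanoma against control (adjusted p = 0.0138), the 1 of 9 genes called there, where 0.646% of all genes were called (0.461% higher, 0.185% lower). In melanoma plus lisinopril against lisinopril it fell by 1.39 ± 0.30 (adjusted p = 0.0389), again the 1 of 9 called, where 1.48% of all genes were (1.34% higher, 0.143% lower). The average of both was -1.57 ± 0.20 (adjusted p = 8.36e-04). This scale understates the change of a gene near 1 TPM: with a pseudocount of 0.1 the average was -2.36. The call within the lisinopril arms was lost when lisinopril 1, 2 or 3, melanoma 1 or 3, or melanoma plus lisinopril 1, 2 or 4 was left out (adjusted p from 0.0530 to 0.158 in these fits). Melanoma 1 and 3 are not in this comparison. Leaving them out kept the change as it was and altered only the shared estimate of the spread and the adjustment. Fitted on the control and melanoma libraries only, the adjusted p in limma was 0.0786. The change itself is the same there by construction, as it is a difference of 2 group means.

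Ccnd2, which encodes cyclin D2, had 4.38, 13.1, 3.21 and 3.08 TPM in control 1 to 4 and 2.98, 3.31 and 3.04 TPM in lisinopril 1 to 3. It had 2.66, 1.53, 2.93 and 2.43 TPM in melanoma 1 to 4 and 1.73, 2.66, 3.48 and 1.29 TPM in melanoma plus lisinopril 1 to 4. Melanoma and control libraries did not overlap in Ccnd2, nor in Ccnd1 and Cdkn1c, so 3 of the 9 genes were lower without overlap, as were 2.89% of all genes (5.33% were higher and 8.21% either). In 7 of 8 tumour-bearing libraries Ccnd2 lay below every tumour-free one, the exception being melanoma plus lisinopril 3. The average tumour effect was -0.61 ± 0.24 (limma, adjusted p = 0.0843). It was -0.75 with median-ratio rescaling (adjusted p = 0.0351) and -0.75 with quantile normalization (adjusted p = 0.0229), which passed the threshold.

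Ccnd3, which encodes cyclin D3, had 3.46 to 20.1 TPM in tumour-free libraries, with a median of 5.15 TPM. The tumour-bearing libraries lay between 3.82 and 5.46 TPM, inside the tumour-free range. Control 2 held the highest value, and the average tumour effect was -0.24 ± 0.24 (limma, adjusted p = 0.472).

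**Figure D2:**
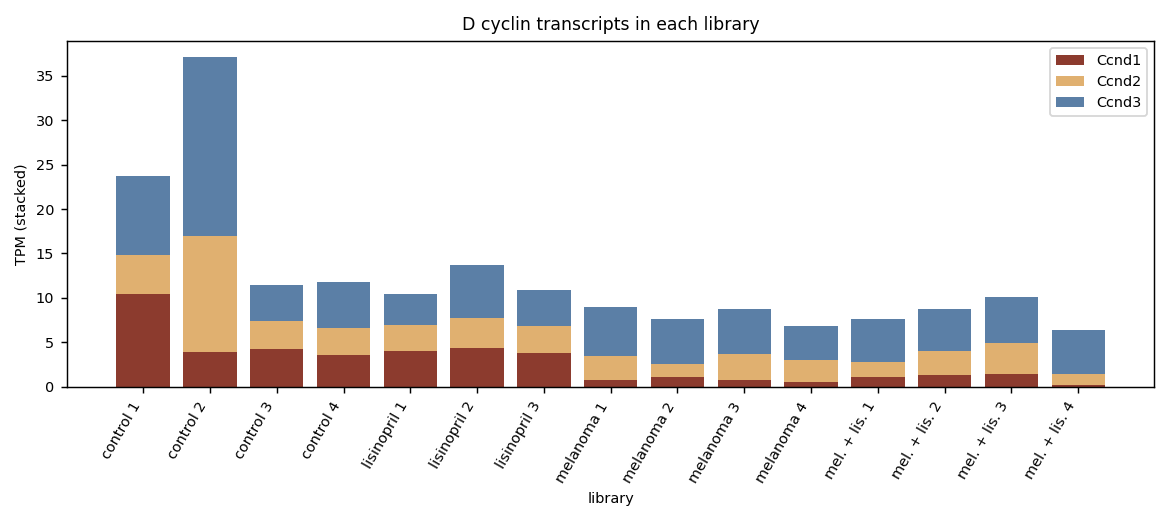
TPM of Ccnd1, Ccnd2 and Ccnd3 stacked (vertical axis) in each of 15 libraries (horizontal axis). The sum is 10.4 to 37.1 TPM in tumour-free and 6.35 to 10.1 TPM in tumour-bearing libraries, and the Ccnd1 segment is the smallest in each tumour-bearing library.

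The makeup of the D cyclin transcripts differed between the tumour-bearing and tumour-free libraries. Ccnd1 made up a median of 35.2% of the summed D cyclin TPM in tumour-free libraries (10.6 to 44.0%) and 11.5% in tumour-bearing ones (2.56 to 15.7%). The lowest tumour-free share, 10.6%, was that of control 2, where Ccnd2 and Ccnd3 were high, and it lay inside the tumour-bearing range. Ccnd3 made up a median of 37.5% in tumour-free (33.2 to 54.2%) and 59.5% in tumour-bearing libraries (51.8 to 77.1%). These shares follow from the values above and were not tested.

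Cdk4, the D cyclin kinase with the higher level here, had 10.6 to 26.1 TPM in tumour-free libraries (median 13.3) and 11.8 to 22.7 TPM in tumour-bearing ones (median 13.6). The ranges overlapped throughout, and the average tumour effect was 0.04 ± 0.17 (limma, adjusted p = 0.896). Cdk6, the other kinase, had 9.98 TPM in control 2 and 0.196 to 1.06 TPM in the other 14 libraries. The median was 0.497 TPM in tumour-free and 0.509 TPM in tumour-bearing libraries. Control 2 was also the library with 44.4 TPM of Cdkn2a, which encodes the inhibitors p16 and p19ARF and had at most 0.385 TPM in the others, and with 32.7 TPM of the proliferation marker Mki67, at most 1.87 TPM in the others. Whether these values belong together was not tested.

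Cdkn1a, at chr17:29090976-29100727 on the plus strand of mm10, encodes p21, the CIP/KIP inhibitor that p53 and other stress pathways induce. It had 80.8, 52.4, 34.5 and 37.8 TPM in control 1 to 4 and 20.3, 38.9 and 19.9 TPM in lisinopril 1 to 3. Melanoma 1 to 4 had 136, 180, 64.3 and 49.9 TPM, and melanoma plus lisinopril 1 to 4 had 103, 112, 37.3 and 240.1 TPM. The groups overlapped: 5 of 8 tumour-bearing libraries were above every tumour-free one, while melanoma 3 and 4 and melanoma plus lisinopril 3 were not. The means were 51.4 ± 21.1 TPM in control (SD, n = 4), 26.4 ± 10.9 TPM with lisinopril (n = 3), 107 ± 61.1 TPM with melanoma (n = 4) and 123 ± 84.8 TPM with both (n = 4).

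In limma, the average tumour effect on Cdkn1a was 1.45 ± 0.37 on the log2(TPM + 1) scale (adjusted p = 0.0206). Within each drug arm it did not pass the threshold: 0.94 ± 0.50 in melanoma against control (adjusted p = 0.317) and 1.97 ± 0.54 in melanoma plus lisinopril against lisinopril (adjusted p = 0.0786). The difference between the arms was 1.02 ± 0.74 (adjusted p = 1.00). The averaged call was lost without lisinopril 1, at 1.38 with an adjusted p of 0.0590. The call within the lisinopril arms was gained without melanoma 2 (1.97, adjusted p = 0.0419) and without melanoma plus lisinopril 3 (2.44, adjusted p = 0.0176). Melanoma 2 is not in this comparison, so only the shared estimate of the spread and the adjustment altered there.

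**Figure D3:**
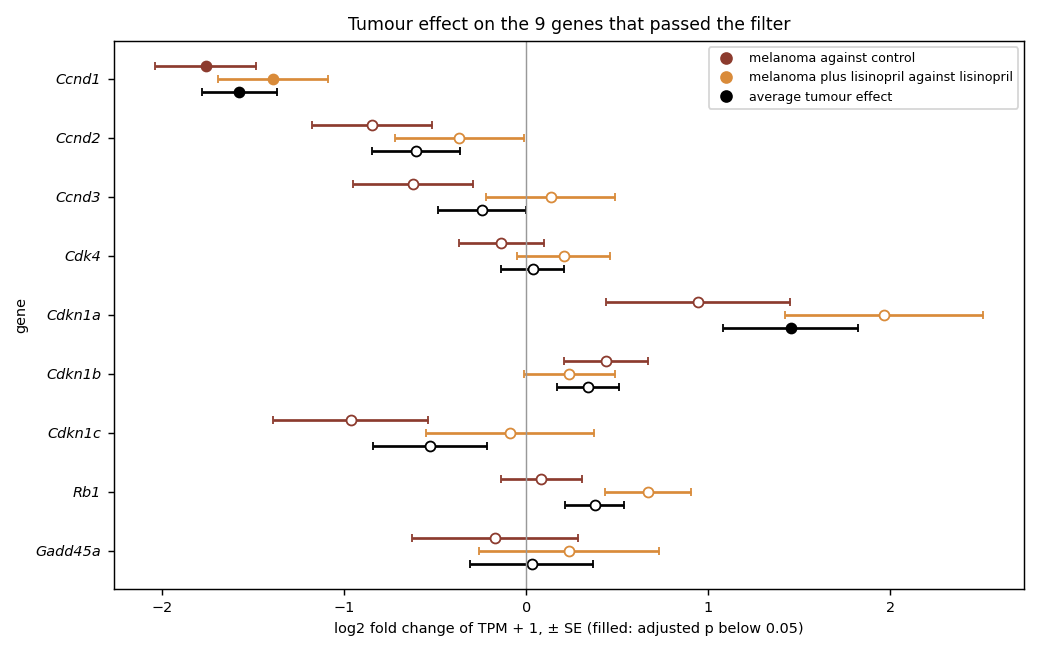
Tumour effect on the 9 genes tested (horizontal axis, log2 fold change of TPM + 1, with its SE), in each drug arm and averaged; filled points passed an adjusted p of 0.05 in limma. Ccnd1 is filled in all 3 comparisons, and Cdkn1a only in the average, at 1.45.

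Start windows, 250 bases before to 50 bases after a RefSeq transcription start, were at hand for 6 of the 10 genes. These were Ccnd3, Cdk4, Cdk6, Cdkn1a, Cdkn1b and Gadd45a. The set of windows used here held none for Ccnd1, Ccnd2, Cdkn1c and Rb1, which does not mean that RefSeq has no start for them. Both windows of Cdkn1a are shown, as the gene that rose, on build GRCm38.p6. The first is chr17:29090729-29091028 and the second chr17:29093519-29093818, both on the plus strand, with matches to GGGCGG in capitals.
Cdkn1a first window: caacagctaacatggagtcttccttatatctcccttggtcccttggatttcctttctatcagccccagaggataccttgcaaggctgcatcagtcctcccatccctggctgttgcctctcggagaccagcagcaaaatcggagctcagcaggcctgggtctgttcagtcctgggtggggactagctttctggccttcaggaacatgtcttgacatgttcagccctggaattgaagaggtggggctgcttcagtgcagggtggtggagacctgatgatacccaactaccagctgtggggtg
Cdkn1a second window: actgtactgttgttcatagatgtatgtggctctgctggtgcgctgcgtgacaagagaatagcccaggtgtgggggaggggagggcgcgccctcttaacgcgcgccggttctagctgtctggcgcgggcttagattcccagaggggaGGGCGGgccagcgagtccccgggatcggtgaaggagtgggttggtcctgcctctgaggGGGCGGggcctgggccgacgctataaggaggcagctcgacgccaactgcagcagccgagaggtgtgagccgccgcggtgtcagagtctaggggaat
In the second window the GC box GGGCGG began 104 and 46 bases before the start, and the E-box CANNTG began 187 and 4 bases before it. The first window held an E-box 37 bases after the start and no GC box. Over all 32851 windows, searched on both strands, 35.7% held GGGCGG and 72.3% held CANNTG. The TATA box TATAAA (13.6% of windows), the CCAAT box CCAAT (37.4%), the forkhead motif GTAAACA (3.65%) and the STAT motif TTCNNNGAA (8.30%) were in neither Cdkn1a window. The p53 motif was added after the first window had been read. As its full consensus without mismatch, it was in none of the 8 windows of these genes, and in 3 of all windows (0.00913%). With so few matches anywhere, its absence here says little. A form allowing a mismatch matched the first Cdkn1a window, but was dropped because it was fitted to letters already seen.

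Cdkn1b, which encodes p27, had 17.3 to 27.6 TPM in tumour-free libraries (median 19.2) and 16.4 to 42.2 TPM in tumour-bearing ones (median 23.1). In 2 tumour-bearing libraries, melanoma 2 and melanoma plus lisinopril 4, it was above every tumour-free library, and in 1 it was below. The average tumour effect was 0.34 ± 0.17 (limma, adjusted p = 0.155). Cdkn1c, which encodes p57, had 34.7, 11.5, 11.1 and 15.8 TPM in control 1 to 4 and 8.12, 8.45, 9.42 and 5.96 TPM in melanoma 1 to 4. All 4 melanoma libraries were below all 4 control libraries, but the change of -0.96 ± 0.43 did not pass the threshold (limma, adjusted p = 0.251). With lisinopril alone Cdkn1c had 7.09 to 24.3 TPM, and with both it had 5.63 to 23.8 TPM. Cdkn1a made up a median of 53.3% of the summed CIP/KIP TPM in tumour-free libraries (42.0 to 59.9%) and 77.6% in tumour-bearing ones (52.6 to 83.5%), and Cdkn1c 19.5% (12.5 to 29.5%) and 7.45% (3.67 to 15.5%).

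Rb1, which encodes the retinoblastoma protein, had 16.7, 19.1, 10.6 and 10.2 TPM in control 1 to 4 and 7.25, 7.77 and 8.82 TPM in lisinopril 1 to 3. It had 13.6, 21.4, 12.5 and 12.2 TPM in melanoma 1 to 4 and 11.5, 14.2, 11.1 and 16.7 TPM in melanoma plus lisinopril 1 to 4. The 3 lisinopril libraries were the lowest of the 15. Rb1 was thus higher without overlap in melanoma plus lisinopril than in lisinopril, as were 29% of all genes, and Ccnd1 was lower without overlap, as were 4.41% (33.4% either). The average tumour effect was 0.38 ± 0.16 (limma, adjusted p = 0.103), and it passed the threshold without control 2 (0.45, adjusted p = 0.0377). Gadd45a, a stress-induced gene whose protein binds p21 and PCNA, had 31.8 to 130.8 TPM in tumour-free libraries (median 40.9) and 22.7 to 99.0 TPM in tumour-bearing ones (median 43.7). Control 1 was the highest, and the average tumour effect was 0.03 ± 0.34 (limma, adjusted p = 0.955).

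**Figure D4:**
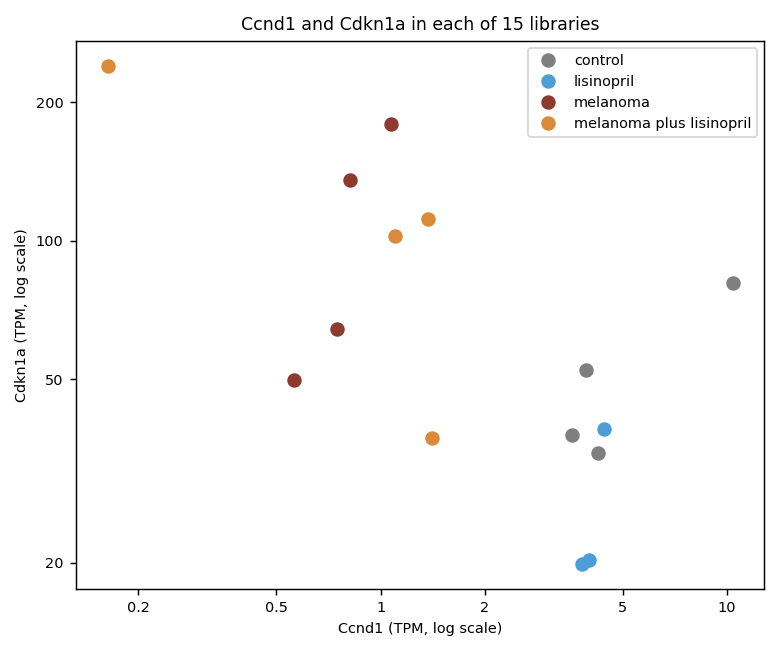
Ccnd1 (horizontal) against Cdkn1a (vertical), both TPM on log axes, in each of 15 libraries coloured by group. The tumour-bearing libraries lie to the left, at most 1.41 TPM of Ccnd1, and spread from 37.3 to 240.1 TPM of Cdkn1a.

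Melanoma plus lisinopril 4 had both the lowest Ccnd1, 0.163 TPM, and the highest Cdkn1a, 240.1 TPM. It also had the lowest mitochondrial share of the 15 libraries, 28.5%, whose part in these values was not tested. TPM are per length, so levels of different genes can be set in order. In tumour-free libraries the medians fell from Gadd45a (40.9) through Cdkn1a (37.8), Cdkn1b (19.2), Cdk4 (13.3), Cdkn1c (11.5), Rb1 (10.2), Ccnd3 (5.15), Ccnd1 (3.98) and Ccnd2 (3.21) to Cdk6 (0.497), and the ranges of all neighbours overlapped. In tumour-bearing libraries Cdkn1a came first (107) and Ccnd1 (0.942) came below Ccnd2 (2.54). There the ranges of Cdkn1c and Ccnd3, and of Ccnd3 and Ccnd2, did not overlap, while those of the other neighbours did.

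The drug comparisons called 0 of the 9 genes, and 0% of all genes in limma. At an unadjusted p below 0.05 there were 461 of 11923 genes in lisinopril against control, 189 between the tumour-bearing groups with and without the drug, and 151 in the interaction. Each of these counts was below the share of 0.05 of all genes that chance alone gives on average. The lowest unadjusted p among the 9 was that of Rb1 in lisinopril against control, -0.72 ± 0.24 (limma, adjusted p = 0.714). Ccnd1 differed by 0.11 ± 0.28 between melanoma plus lisinopril and melanoma, and Cdkn1a by 0.10 ± 0.50 (limma, adjusted p = 1.00 for both).

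Around these genes, 6 lists were read in the averaged tumour effect, in which 14.5% of all genes were called higher and 3.45% lower. Counts of a few genes in a list of this size are a description, to be read beside these shares. No list was tested as a set, and the lists were chosen with earlier results of these data known. Of 19 tested partners of the G1 to S step, 2 rose and 2 fell: Tfdp2, an E2F partner (1.52 ± 0.42), and Rbl2, the retinoblastoma relative p130 (0.83 ± 0.24), rose, and Ccne2, which encodes cyclin E2 (-0.60 ± 0.15), and Cks1b, a kinase subunit (-0.64 ± 0.16), fell. The list's median was -0.02, against 0.17 over all genes. Of 9 tested S phase and mitosis genes, Cenpa, the centromeric histone, fell (-0.85 ± 0.25), with a median of -0.18; 15 of the 24 listed genes were too low to test. Of 18 tested p53 targets, Aen, a nuclease, rose (0.40 ± 0.13), with a median of 0.13. Mdm2, the p53 inhibitor, had 16.7 to 23.7 TPM in tumour-free and 17.7 to 27.7 TPM in tumour-bearing libraries.

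Of 14 GADD45 family and stress genes, 3 rose and 1 fell, with a median of 0.28. Atf4, a stress transcription factor (0.90 ± 0.21), Ppp1r15a, a phosphatase subunit also called Gadd34 (0.98 ± 0.29), and Ddit4, an mTORC1 inhibitor (1.16 ± 0.38), rose, and Ddit3, which encodes CHOP, fell (-0.57 ± 0.15). Of 14 FoxO and glucocorticoid inducible genes 8 rose and 0 fell, with a median of 0.64. Fkbp5, a glucocorticoid-induced chaperone, had a mean of 11.6 TPM in tumour-free and 90.1 TPM in tumour-bearing libraries (3.08 ± 0.45), and Foxo1 had 5.28 and 24.6 TPM (1.85 ± 0.35). Zbtb16 (1.76 ± 0.29) and Foxo4 (0.50 ± 0.13) also rose. Of 13 tested satellite cell and myoblast genes 5 rose and 0 fell, with a median of 0.32. Des (1.07 ± 0.19) and Itga7 (0.82 ± 0.17), which fibres also express, Cdh15 (0.64 ± 0.18) and Chodl (0.47 ± 0.15) were among them.

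These counts moved with single libraries. Left out one at a time, lisinopril 2 gave 1 call among the partners, 1 among the stress genes and 3 among the FoxO and glucocorticoid genes, while control 2 gave 8 among the partners. The single call in the S phase list was lost in 8 of the 15 such fits and that in the p53 list in 12. With median-ratio rescaling or quantile normalization the FoxO and glucocorticoid list had 4 calls.

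**Figure D5:**
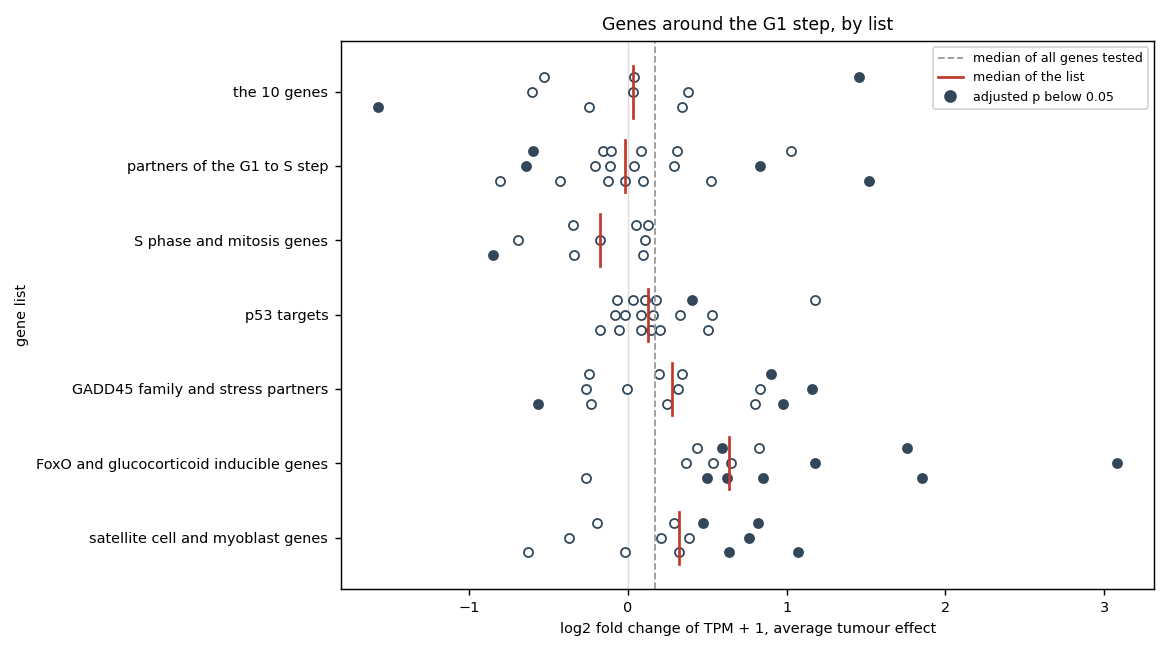
Average tumour effect (horizontal axis, log2 fold change of TPM + 1) of each tested gene, by list; filled points passed an adjusted p of 0.05 in limma, the short red line is the list's median and the dashed line the median of all genes, 0.17. The FoxO and glucocorticoid inducible genes have the highest list median, 0.64.

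Markers of other cells were read in the same averaged tumour effect, in which 14.5% of all genes were called higher and 3.45% lower. Neutrophil markers rose in 7 of 7 tested genes and summed to 11.1 to 104 TPM in tumour-free and 143 to 686 TPM in tumour-bearing libraries. Lymphocyte markers summed to 33.5 to 229 TPM and 2.68 to 21.1 TPM, but only 2 of the 7 were high enough to test. Of these 1 fell, the immunoglobulin gene Ighm (-3.58 ± 0.44), with means of 76.0 TPM in tumour-free and 6.16 TPM in tumour-bearing libraries. Endothelial markers, of which 3 of 10 rose and Kdr, a VEGF receptor, fell (-0.85 ± 0.17), summed to 127 to 265 TPM and 168 to 255 TPM. Fibro-adipogenic markers, of which 4 of 10 rose, summed to 377 to 1358 TPM and 783 to 1467 TPM. Macrophage markers, of which 2 of 9 rose, summed to 76.8 to 518 TPM and 152 to 427 TPM. The sums of endothelial, fibro-adipogenic and macrophage markers thus overlapped between the sides. Of smooth muscle and pericyte markers 1 of 8 rose, of muscle fibre markers 1 of 10, and of red blood cell markers 0 of 5 tested were called. The part of these cells in the values of Ccnd1 and Cdkn1a was not tested.

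The genes whose pattern over the 15 libraries was most like that of Ccnd1, by the root mean square difference of standardised log2 values, were Slc38a10 (0.332), Fabp3 (0.344) and Tsfm (0.393), of 7516 genes with a mean of at least 5 TPM, whose median was 1.56. Fabp3, a fatty acid-binding protein, had 699 to 1363 TPM in tumour-free and 344 to 667 TPM in tumour-bearing libraries. The genes most like Cdkn1a were Ank3 (0.320), Mt1 (0.359) and Lmf2 (0.359), of 7515, whose median was 0.924. Mt1, a metallothionein, had 106 to 415 TPM in tumour-free and 496 to 4222 TPM in tumour-bearing libraries.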

How the data were processed

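Tibialis anterior RNA from 15 female mice was sequenced (TruSeq stranded mRNA kit, NovaSeq instrument), per the labels' protocols. The authors deposited TPM for 47643 symbols, and the submitters' processing notes name build mm10. The aligner, counting program and annotation behind them were not given in the sources used here. TPM keep no depth, so no counting interval is given. Labels call the samples biological replicates without naming the mice.

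The 11923 symbols with at least 1 TPM in at least 3 libraries were fitted as log2(TPM + 1) with limma 3.58.1 in R 4.3.3: 4 group means over all libraries, eBayes with trend, 11 residual and 3.80 prior degrees of freedom, two-sided tests, Benjamini-Hochberg adjustment over all genes of a contrast, threshold 0.05. The fit was tested on simulated data. All 10 genes are named whatever their result; from each list up to 4 called genes are named by adjusted p, with at least 1 TPM in the higher side, and for each called gene the 3 most similar profiles. The genes and lists were chosen with earlier results of these data known. Mdm2, Cdkn2a and Mki67 were singled out after their values were seen.

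Other settings tried were no filter, a pseudocount of 0.1, a mean of at least 5 TPM, median-ratio, quantile and mitochondria-free scaling, no trend, sample quality weights, a replicate block, only the groups compared, and leaving out libraries. Coding starts and positions came from GENCODE M21, start windows from RefSeq (GRCm38.p6). The p53 motif was added to the search after a Cdkn1a window had been read. Its strict form found no match in the windows of these genes. A form allowing a mismatch was then tried and matched the first Cdkn1a window. That form was dropped because it was fitted to letters already seen. Tables and figures used matplotlib 3.10.9, numpy 2.4.6 and pandas 2.3.3 in Python 3.11.15.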

Additional observations from a re-analysis of the deposited data

Results flagged for a closer look

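Of 36 groups of 4 libraries checked for a library far from the others of its group, 9 had one. The checks covered the 10 genes and also Cdkn2a and Mki67, which were singled out after their values were seen. They also reuse the same libraries from gene to gene. The count therefore cannot be set against the 1 in 20 that chance gives in a single check. Control 2 was far above the other controls in Ccnd2 (13.1 TPM), Cdk6 (9.98 TPM), Cdkn2a (44.4 TPM) and Mki67 (32.7 TPM). Control 1 was far above the other controls in Ccnd1 (10.4 TPM). Melanoma 2 was far above its group in Cdk4 (22.7 TPM) and Rb1 (21.4 TPM). Melanoma 2, at 0 TPM, and melanoma plus lisinopril 4, at 0.0818 TPM, stood apart from their groups in Cdkn2a. In both groups every library was below 1 TPM of this gene. No gene of the 10 had a called difference of the tumour effect between drug arms (0 of 9 tested in limma).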

How the results depend on the processing

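The fall of Ccnd1 in the averaged tumour effect passed the threshold in 24 of 24 alternatives that tested it (-2.36 to -1.42), and the rise of Cdkn1a in 24 of 25 (1.19 to 1.69). Against the 2 genes called in the average, the stricter filter gave 1 (Ccnd1 was then not tested), sample quality weights 4, and single libraries left out 1 (without lisinopril 1) to 3 (without control 2, which added Rb1). Median-ratio rescaling and quantile normalization gave 3 each, with Ccnd2, and the fit without control 2 and melanoma 2 gave 3, with Rb1. Against the 1 called in melanoma against control, the stricter filter gave 0, only the groups compared 0 and quality weights 2. Against the 1 called in melanoma plus lisinopril against lisinopril, no filter and the stricter filter gave 0, quality weights 3, only the groups compared 2, the fit without control 2 and melanoma 2 gave 3, and single libraries left out gave 0 to 2. The causes were not tested, apart from the stricter filter. Over all genes, calls in the average ranged from 743 (without lisinopril 1) to 3959 (without control 2) with a library left out, and from 1337 to 4660 under the other alternatives. In melanoma against control they ranged from 17 to 590 and from 5 to 1710, and in the lisinopril arms from 5 to 681 and from 14 to 2303.

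Whether replicate numbers pair the samples is not settled here. Of 21 same-numbered pairs 9 had correlated deviations over 0.1 (lowest -0.15, highest 0.36). Differently numbered pairs also passed 0.1. They ranged from -0.42 (melanoma 2 and melanoma plus lisinopril 3) to 0.36 (control 1 and lisinopril 2). The median correlation was 0.083 for same-numbered pairs and -0.035 for the others, a difference that was not tested. With a replicate block, 1, 1 and 2 of the 9 genes were called in the tumour contrasts in the same order (melanoma against control, lisinopril arms, average) and 0 in the others, and 120, 356 and 2172 of all genes. TPM keep no depth, so how far depth limits Cdk6 and Ccnd1 near 1 TPM is unknown.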
